A study of Mus musculus with 12 samples.

Results

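Most muscle genes have no value of their own among the 27942 genes analysed here, but a small set of measured genes shares sequence or position with them. Described here are 7 genes, taken by symbol from the tables. Mylf-ps is a pseudogene copied from the myosin light chain gene Myl1, and AC124709.2 one copied from part of the calcium pump gene Atp2a2. AC157554.3, 1700113A16Rik, Gm43109 and Gm13778 are non-coding genes listed as lying over the muscle genes Mb, Mef2d, Vcam1 and Rapsn. Klhl33, a protein-coding gene with a value of its own, has no link of that kind to the muscle genes compared below. They were selected on their link to muscle with the OI and control FPKM values of these same libraries in view, so their values in the comparison below are a description and carry no test of their own. The RNA came from C2C12, an established line of mouse myoblasts, grown to 80% density in 10% fetal bovine serum and then held in 2% horse serum for 7 days to differentiate. The control group (3 libraries) was left untreated, and the OI group (3 libraries) received 25 µmol/L 4-octyl itaconate, a cell-permeable itaconate derivative. Both groups were held in the same differentiation medium, and no group of undifferentiated cells was part of the comparison. The share of undifferentiated cells within either group was not measured. Of 12 samples in the series, 3 more of each group were not analysed here. The labels do not say whether the 3 libraries of a group came from separate cultures, so the spread between them may be technical.

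When myoblasts differentiate they leave the cell cycle, fuse into multinucleated myotubes and switch on contractile proteins, calcium pumps, oxygen-binding myoglobin and the receptor-clustering proteins of the neuromuscular junction. Myogenic factors of the MyoD family bind E-box motifs, and MEF2 proteins bind an AT-rich motif, at many of these genes. A processed pseudogene arises when a messenger RNA is reverse-transcribed and inserted elsewhere in the genome, so that it carries its parent's exons without introns. Reads from an abundant parent can therefore align to the copy. An antisense gene lies on the strand opposite its partner, and in a library that does not keep strand its exons also collect reads of the partner wherever both overlap.

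The sequence of Mylf-ps shows how close a copy it is. It is a single exon of 421 bases on chromosome 12, minus strand (chr12:101221997-101222417, GRCm38), and all 421 bases align to the coding part of a Myl1 transcript of 1082 bases with 3 differences, an identity of 99.3%. The differences, given as the Myl1 base, the position from 1 at the 5′ end of Mylf-ps and the Mylf-ps base, are C100T, G268A and T392G. Positions 222 to 421 hold the last of these and the middle one, and are shown for copy and parent from the GENCODE M21 transcripts, with the differing bases in capitals.
Mylf-ps: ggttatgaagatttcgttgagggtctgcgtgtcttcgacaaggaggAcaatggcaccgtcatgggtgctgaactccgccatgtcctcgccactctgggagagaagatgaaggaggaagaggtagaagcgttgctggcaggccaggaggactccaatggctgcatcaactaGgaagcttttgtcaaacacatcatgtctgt
Myl1: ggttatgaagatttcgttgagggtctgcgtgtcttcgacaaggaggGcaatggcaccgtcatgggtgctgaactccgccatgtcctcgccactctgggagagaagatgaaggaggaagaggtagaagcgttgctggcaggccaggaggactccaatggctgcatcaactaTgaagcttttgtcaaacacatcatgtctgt
In the reading frame of Myl1, T392G turns codon 178 of 188 from TAT into the stop codon TAG. C100T and G268A each alter a codon without making a stop, from ACC to ATC and from GGC to GAC.

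AC124709.2 (named Gm30970 in GENCODE M21) is a single exon of 363 bases on chromosome 14, minus strand (chr14:79106039-79106401), inside the gene Vwa8 but in none of its exons. It aligns over its whole length to the coding part of an Atp2a2 transcript of 4486 bases with 4 differences, an identity of 98.9%, and they are A182T, G192A, G296C and G363T in the same notation. All 4 lie in positions 164 to 363, shown with the differing bases in capitals, and none makes a stop codon.
AC124709.2: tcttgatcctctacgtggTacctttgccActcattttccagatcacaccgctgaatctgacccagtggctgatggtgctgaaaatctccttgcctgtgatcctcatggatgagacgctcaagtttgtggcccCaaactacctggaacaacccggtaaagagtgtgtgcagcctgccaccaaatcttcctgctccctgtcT
Atp2a2: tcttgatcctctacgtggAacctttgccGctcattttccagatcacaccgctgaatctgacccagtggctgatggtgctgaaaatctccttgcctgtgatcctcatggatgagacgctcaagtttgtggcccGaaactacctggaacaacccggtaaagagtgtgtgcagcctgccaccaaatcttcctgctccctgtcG
No source used here gives the read length, so the share of stretches that cannot tell copy from parent was taken over a range of lengths. Of all windows of 50 bases in Mylf-ps 65.1% were present unchanged in a Myl1 transcript, of windows of 100 bases 28.6%, of windows of 150 bases 6.62%, and of windows of 200 bases 0%. For AC124709.2 in Atp2a2 the shares were 64.7%, 32.6%, 15% and 0%. The value of either pseudogene can therefore hold reads of its parent, and its own transcription was not measured apart from them.

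**Figure D1:**
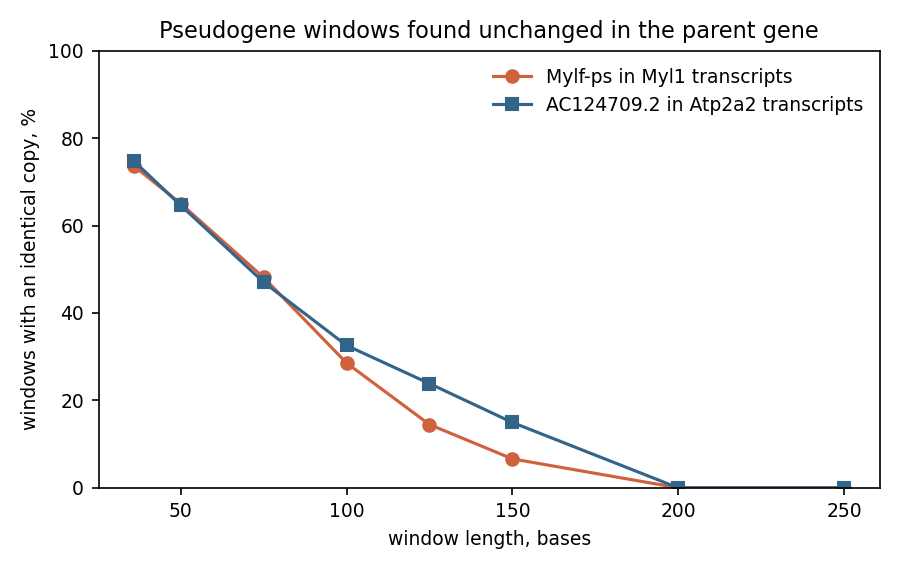
Share of windows of a pseudogene (y axis, percent) that occur unchanged in a transcript of the parent gene, against window length in bases (x axis). Mylf-ps (circles) and AC124709.2 (squares) both lose identity between windows of 150 and 200 bases, where the share reaches 0%.

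The 4 non-coding genes differ widely in how much they share with their muscle partner. AC157554.3 (Gm49540 in GENCODE M21; chr15:77014093-77015898, plus strand) has exons of 638 bases, of which 412 (64.6%) lie opposite exons of Mb, all of them outside the coding part. 1700113A16Rik (chr3:88171556-88177785, minus strand) shares 531 of its 1095 exonic bases (48.5%) with Mef2d, again only outside the coding part. Gm43109 (chr3:116128451-116141016, plus strand) shares 61 of 753 exonic bases (8.10%) with Vcam1, and all 61 are coding in Vcam1. Gm13778 (chr2:91044092-91053933, minus strand) shares 4 of 670 exonic bases (0.597%) with Rapsn, and its first base lies 76 bases from the start of Psmc3, a proteasome gene on the other strand. By position Gm13778 is thus barely a stand-in for Rapsn, and it is described below as a gene beside Rapsn and Psmc3, although any shared exonic base counts as a link where all such genes are counted.

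**Figure D2:**
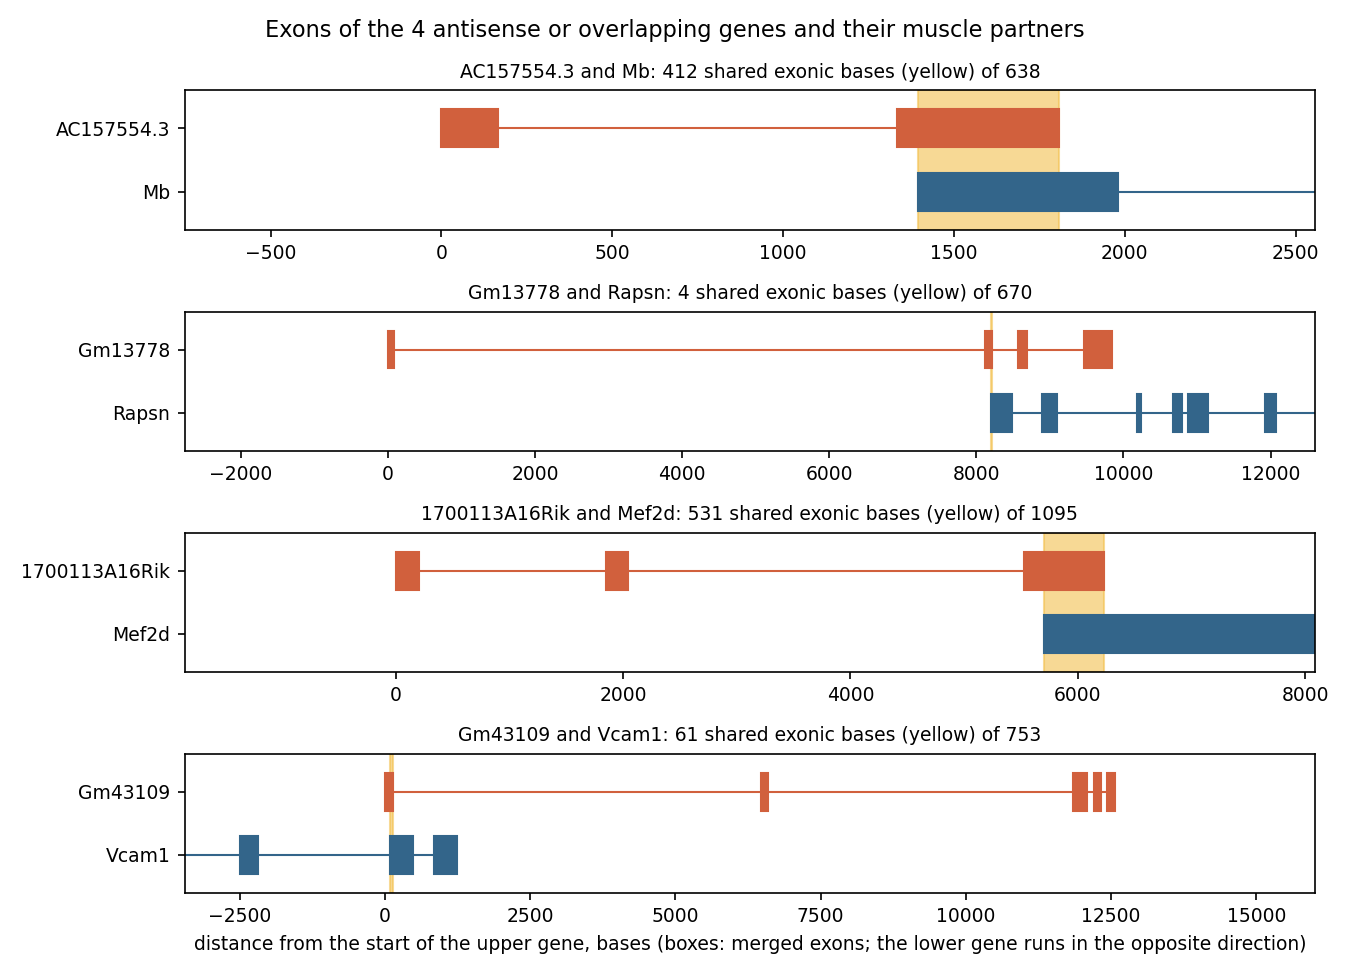
Exons of AC157554.3, Gm13778, 1700113A16Rik and Gm43109 (upper boxes, merged over transcripts) above those of the muscle gene on the opposite strand (lower boxes), by distance in bases from the start of the upper gene (x axis). Yellow marks the shared exonic bases, 412 with Mb, 4 with Rapsn, 531 with Mef2d and 61 with Vcam1.

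The first exons of AC157554.3 and Gm43109 do not reflect how much each whole gene shares. The bases that AC157554.3 shares with Mb lie in its other exon, which is not shown. Exon 1 of AC157554.3 (chr15:77014093-77014257, GRCm38, plus strand, 165 bases) shares no base with an exon of Mb, and exon 1 of Gm43109 (chr3:116128451-116128593, plus strand, 143 bases) holds all 61 bases shared with Vcam1, given in capitals.
AC157554.3 exon 1: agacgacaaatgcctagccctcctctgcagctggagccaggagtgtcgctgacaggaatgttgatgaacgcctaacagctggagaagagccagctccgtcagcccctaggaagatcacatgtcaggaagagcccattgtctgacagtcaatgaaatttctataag
Gm43109 exon 1: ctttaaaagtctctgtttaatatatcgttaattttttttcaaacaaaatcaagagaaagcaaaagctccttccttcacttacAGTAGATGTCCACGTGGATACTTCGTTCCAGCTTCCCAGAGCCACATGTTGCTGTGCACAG
Values are given per gene, so reads in the shared and the unshared exons of AC157554.3 could not be counted apart. Whether strand was kept is not known. Among the genes that lie wholly inside exons of a tested opposite-strand gene, with no filter on the inner gene itself, there were 31 with 26 partners. Their level per length was between 2.93% and 436% of the partner's, with a median of 83.2%, and none was listed at 0 throughout. The inner gene may be transcribed itself, so these values do not settle whether strand was kept.

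Klhl33 (ENSMUSG00000090799, chr14:50888582-50897507, minus strand) encodes a kelch-like protein, and proteins of that family hand substrates to cullin-3 ubiquitin ligases. None of its exons overlaps another annotated gene. Of its longest transcript of 5513 bases, 2382 are coding. A total of 640 bases, all in the 3′ untranslated part, matched transcripts of 3061 other genes in the way of an interspersed repeat, and no coding base did. Its RefSeq promoter is shown because MEF2 and MyoD factors act on muscle genes and Klhl33 is the one protein-coding gene of the 7. The 250 bases before the start (chr14:50897484-50897733, GRCm38.p6, minus strand) were searched for a core of the MEF2 motif, CTA and TAG with any 4 bases between them, and for the E-box CANNTG. Both patterns read the same on either strand, and the matches, which do not overlap, are in capitals.
Klhl33 promoter: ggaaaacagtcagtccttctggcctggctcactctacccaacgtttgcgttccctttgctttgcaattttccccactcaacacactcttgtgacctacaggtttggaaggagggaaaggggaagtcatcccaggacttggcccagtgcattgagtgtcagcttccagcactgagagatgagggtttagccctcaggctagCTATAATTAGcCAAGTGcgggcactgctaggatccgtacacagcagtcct
The MEF2 match begins 50 bases and the E-box 39 bases before the start, with 1 base between them. Of 32536 promoters of the same length 3.22% hold the MEF2 core, 66.2% hold CANNTG and 2.20% hold both. A second listed start of Klhl33 had neither match. The listed starts of Myl1 (1) and Mb (3) had no MEF2 core and between 1 and 3 E-boxes each, and that of Mef2d had neither motif. The E-box form CAGCTG, held by 13.05% of the promoters, was at no listed start of Klhl33 or Mef2d. It was at the start of Myl1 and at some of those of Mb. The listed starts of 1700113A16Rik and Gm30970 had no MEF2 core, and 1 and 2 E-boxes.

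The libraries held between 24441000 and 36274000 reads or fragments, recovered from the values. Control replicate 1 stood apart, since the genes analysed took 23.9% of its reads against 5.25% to 5.77% in the other 5 libraries. Of the 8 markers of differentiating muscle fixed for this work, Tnnc1 and H19 have a value. Tnnc1, the slow and cardiac troponin C, had a mean of 126 ± 15.1 in control and of 23.2 ± 1.39 FPKM in OI (SD, n = 3 each), and H19, an imprinted RNA of developing muscle, lay between 131 and 136 FPKM in control and between 24.1 and 32.1 FPKM in OI. Markers of undifferentiated myoblasts, smooth muscle, fibroblasts, fat, bone and cartilage were not analysed here. FPKM is the number of fragments per kilobase of gene length, scaled to the size of the library.

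Mylf-ps, AC157554.3 and Klhl33 were lower in every OI library than in any control library. In a limma fit over all 1737 tested genes, with Benjamini-Hochberg adjustment and a threshold of 0.05, these 3 of the 7 fell and none rose, where 1.61% of all tested genes fell and 1.15% rose (2.76% in either direction). Separation in that direction was seen in the same 3 of the 7, against 12.5% of all tested genes (23.6% separate in either direction). All 7 had a lower mean in OI, where 55.4% of all tested genes had a log2 fold change below 0, and their median log2 fold change was -0.48, against -0.02 for all genes tested. Because the genes were chosen with this comparison in view, nothing is read from these counts. In bulk RNA, fewer cells of a type and less RNA per cell cannot be told apart.

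Mylf-ps, the copy of the fast-muscle essential light chain of myosin, was the most abundant of the 7. Control replicates 1 to 3 had 55.4, 41.4 and 41.8 FPKM, and OI replicates 1 to 3 had 12.7, 15.8 and 14.6 FPKM. The groups did not overlap, and control replicate 1 lay above the other controls. Control had a mean of 46.2 ± 7.96 and OI of 14.4 ± 1.55 FPKM (SD, n = 3 each), and the log2 fold change was -1.61 ± 0.14 (SE) on the log2(FPKM + 1) scale. These values rest on 528 to 570 reads per control library and 158 to 241 per OI library. The exact 95% counting interval of control replicate 1 ran from 50.9 to 60.1 FPKM and did not meet those of control replicate 2 (38.0 to 45.1 FPKM) and control replicate 3 (38.3 to 45.5 FPKM). Without control replicate 1, the library that stands apart, the log2 fold change was -1.48. Counting intervals cover counting error only, since reads without molecular identifiers are not independent molecules.

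AC157554.3, the gene opposite the last exon of myoglobin, had the largest change of the 7. It was at 5.45, 5.14 and 6.48 FPKM in control and at 0.390, 0.778 and 0.671 FPKM in OI; the lowest control library lay at several times the level of the highest OI library. The means were 5.69 ± 0.703 and 0.613 ± 0.20 FPKM (SD, n = 3 each), a ratio of 9.28 between control and OI. Its log2 fold change of -2.05 ± 0.13 (SE) was near the low end of all tested genes, with 0.230% of them lower. On this scale the change of so low a gene is understated, and with a pseudocount of 0.1 it was -3.06, on recovered read numbers -3.21 and with a pseudocount of 5 -0.93. The gene had 85 to 124 reads in control and 8 to 18 in OI, with exact 95% intervals in OI from 0.169 to 1.23 FPKM. It reached 1 FPKM, the level that let a gene into the test, in the 3 control libraries and in no OI library.

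Klhl33 was at 4.83, 4.41 and 4.84 FPKM in control and at 1.79, 1.94 and 1.79 FPKM in OI. Both groups were tight and far apart, with means of 4.69 ± 0.245 and 1.84 ± 0.0855 FPKM (SD, n = 3 each), a ratio of 2.55. The log2 fold change was -1.0 ± 0.0792 (SE), the smallest SE of the 7, and it rests on about 650 to 801 reads in control and 254 to 388 in OI. With a pseudocount of 5 it was -0.50, and on recovered read numbers it was -1.34.

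**Figure D3:**
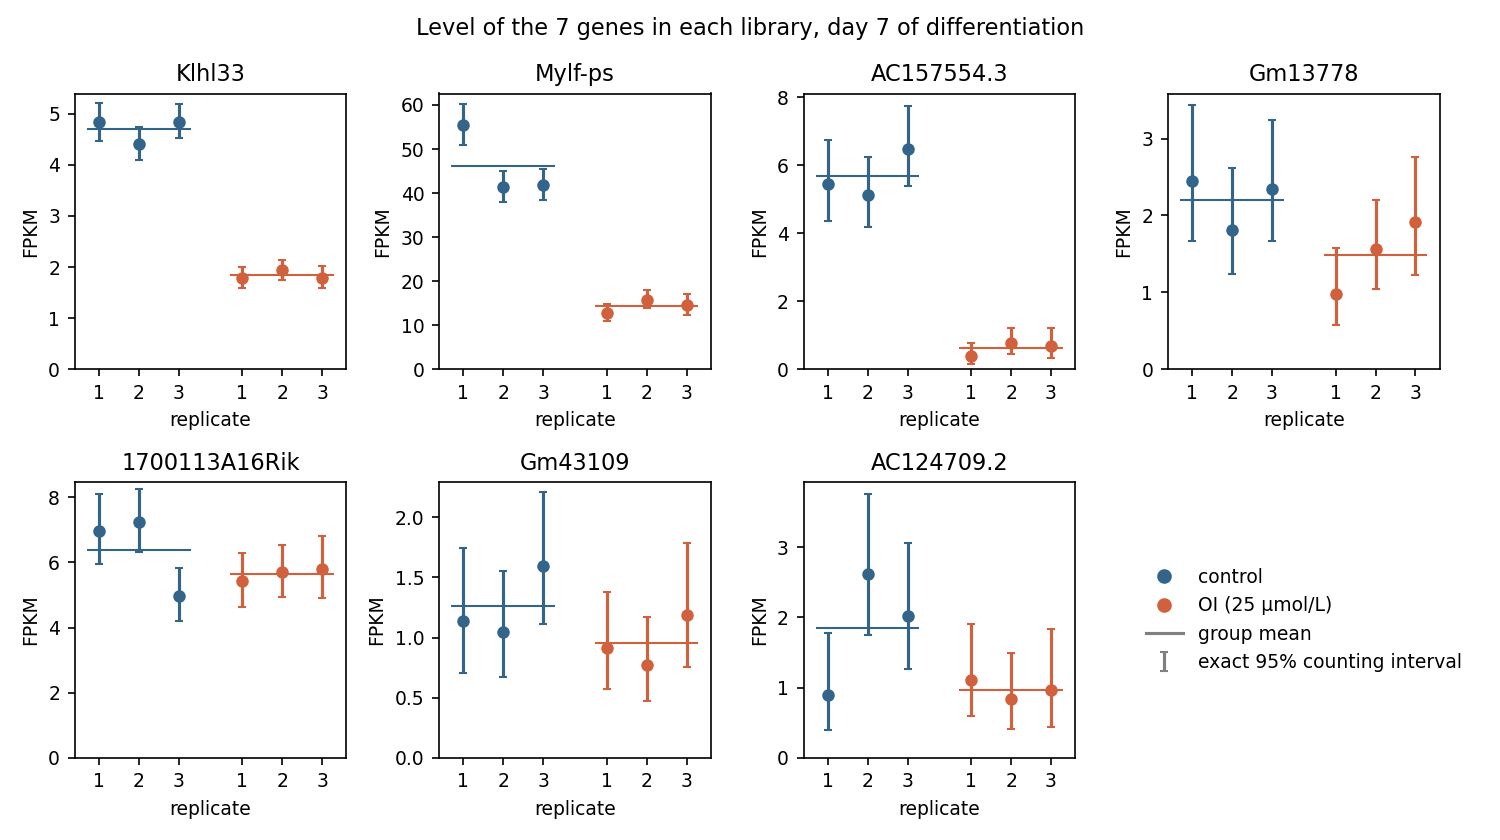
FPKM (y axis) of each of the 7 genes in the 3 control (blue) and 3 OI (orange) libraries, numbered by replicate (x axis). Bars are exact 95% counting intervals and horizontal lines are group means. The groups are apart for Klhl33, Mylf-ps and AC157554.3 and overlap for the other 4 genes.

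The other 4 genes did not pass the threshold, and their groups overlapped. 1700113A16Rik lies opposite the end of Mef2d, a MEF2 transcription factor made in many tissues. It was at 6.95, 7.24 and 4.96 FPKM in control and at 5.43, 5.69 and 5.80 FPKM in OI. Control replicate 3 was below all OI libraries and the other controls were above them. The log2 fold change was -0.14, with a 95% interval from -0.47 to 0.19, so a fall as large as that of Klhl33 lies outside the interval. It was -0.29 without control replicate 3, -0.08 without control replicate 1 and -0.05 without control replicate 2. It had 147 to 218 reads per library in either group, and its spread between OI libraries (3.34% of the mean) was below the 7.57% that counting alone gives.

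Gm43109 shares a short coding stretch with Vcam1, a cell adhesion molecule that takes part in contacts between myoblasts. It was at 1.14, 1.04 and 1.59 FPKM in control and at 0.910, 0.769 and 1.19 FPKM in OI. OI replicate 3 lay above control replicates 1 and 2. The log2 fold change was -0.21 (95% interval from -0.55 to 0.13) and was -0.10 without control replicate 3 and -0.14 without OI replicate 2. The gene had 21 to 36 reads per library. At that depth the interval of control replicate 1 (0.706 to 1.74 FPKM) spans all 6 values. That of OI replicate 3 (0.754 to 1.78 FPKM) does so too, while those of the other libraries do not.

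Gm13778, beside Rapsn, whose product clusters acetylcholine receptors, and Psmc3, was at 2.44, 1.81 and 2.34 FPKM in control. In OI it was at 0.976, 1.56 and 1.92 FPKM. OI replicate 3 lay between control replicates 2 and 1, while OI replicate 1 was the lowest library. The log2 fold change was -0.38 (95% interval from -0.79 to 0.04) and was -0.22 without OI replicate 1, with about 17 to 38 reads per library.

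AC124709.2 is the copy of part of Atp2a2, which encodes a calcium pump of the sarcoplasmic and endoplasmic reticulum. It was at 0.902, 2.62 and 2.02 FPKM in control and at 1.11, 0.835 and 0.965 FPKM in OI. Control replicate 1 was at the OI level, and the other controls were above all OI libraries. The log2 fold change was -0.48 (95% interval from -1.07 to 0.10), and it was -0.75 without control replicate 1 and -0.28 without control replicate 2. The gene had 8, 29 and 22 reads in the controls and 9 to 13 in OI, and the spread between controls was 47.2% of the mean where counting alone gives 22.5%. The 95% interval of its log2 fold change reaches below the value of Klhl33, so a fall of that size was neither seen nor outside the interval. For Gm43109, Gm13778 and AC124709.2 the log2 fold changes were -0.36, -0.57 and -0.75 with a pseudocount of 0.1 and -0.07, -0.15 and -0.19 with a pseudocount of 5.

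**Figure D4:**
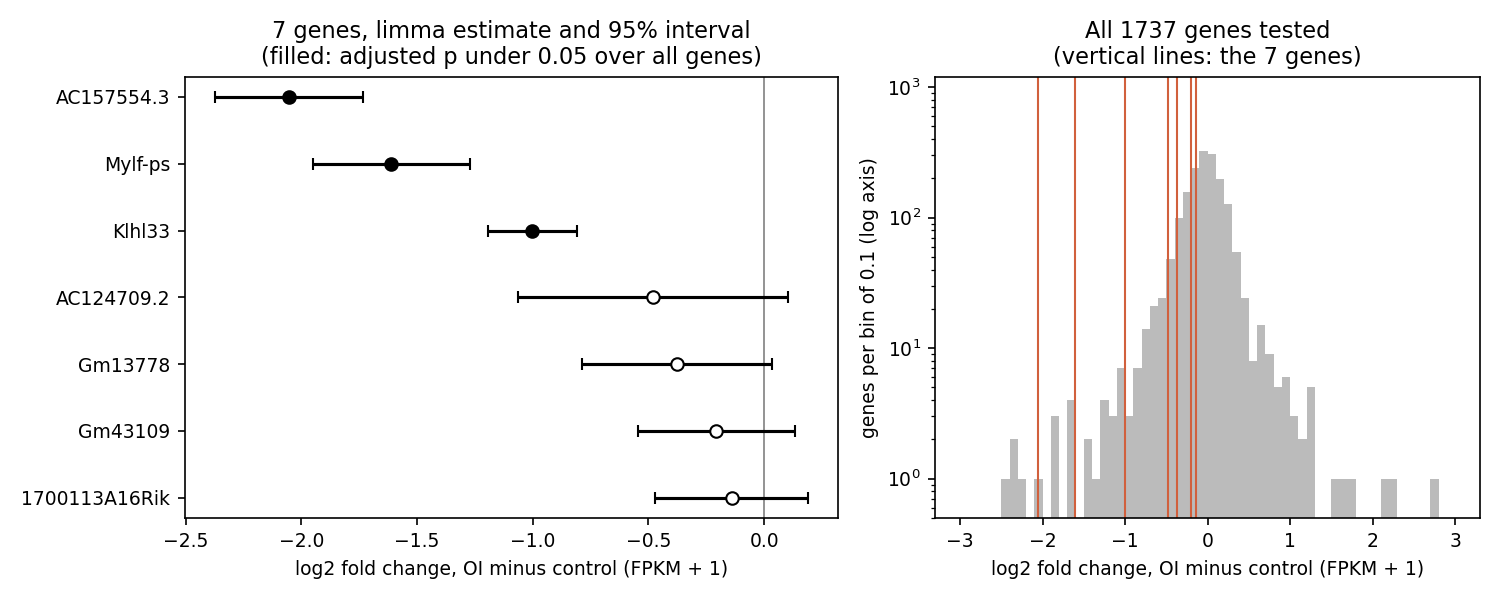
Left, log2 fold change of OI minus control on the log2(FPKM + 1) scale (x axis) for each of the 7 genes with its limma 95% interval. Filled points passed an adjusted p of 0.05. Right, the same quantity for all 1737 genes tested (grey, counts on a log axis) with the 7 genes as vertical lines, from -2.05 for AC157554.3 to -0.14 for 1700113A16Rik.

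The counted reads bear on how each value was made. For the 4 genes with 1 annotated transcript (Mylf-ps, AC157554.3, Gm43109 and AC124709.2) FPKM times gene length and library size was a whole number to within 0.01 in all 6 libraries. For the 3 genes with several transcripts it was off a whole number by up to 0.457, so their read numbers are approximate. Since library size was itself recovered from such whole steps, and a read shared with a parent can be assigned whole, these numbers do not show whether the pseudogenes hold reads of their parents.

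The members were also compared by profile. The measure was the root mean square difference between log2(FPKM + 1) values centred on each gene's mean over the 6 libraries. Profiles were not scaled to equal spread, so the size of a change enters this difference as well as its shape. Adding 1 shrinks the changes of low genes such as AC157554.3. Nearness to a more abundant gene is therefore not an equal fold change. Among the 7, the nearest pair was Gm13778 and Gm43109 (0.19), both with small differences between groups. Mylf-ps and AC157554.3 differed by 0.28 and Klhl33 and Mylf-ps by 0.33, while 1700113A16Rik and AC157554.3 were farthest apart (0.99). Of the other tested genes with a mean of at least 1 FPKM, the nearest to AC157554.3 were H19 and the antisense gene Gm16567 (0.15 each). Nearest to Mylf-ps were Gm16567 and the antisense gene Gm26771 (0.18 each), and nearest to Klhl33 were the antisense genes Gm15816 (0.10) and Gm17225 (0.11). Gm16567 was at 54.3, 50.9 and 57.6 FPKM in control and at 13.8, 15.2 and 15.5 FPKM in OI, and Gm15816 at 1.72, 1.88 and 2.05 FPKM in control and at 0.645, 0.572 and 0.392 FPKM in OI. The small distances of the 4 genes that did not pass, such as 0.04 between 1700113A16Rik and Gm27927 or between Gm43109 and Rps4x-ps, come with little movement in either gene. The nearest genes were Gm45236 (0.08) and Gm37256 (0.11) for Gm13778, and Gm26695 (0.14) and Gm35638 (0.16) for AC124709.2. The second nearest were 3110056K07Rik for 1700113A16Rik and Gm37422 for Gm43109 (0.05 each).

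The 7 were set beside all measured genes with a link to a muscle gene. Each gene analysed was compared with 171 muscle genes in 6 lists. These were sarcomere, myogenic transcription factors, cell adhesion and fusion, calcium handling, neuromuscular junction and dystrophin complex, and oxygen and energy supply. A link was the gene itself, any shared exonic base on either strand, or an identity of 90% or more along 80% or more of the transcript. This gave 123 genes linked to 48 muscle genes: 77 by near-identity, 44 by overlap and 2 as the listed genes themselves, Tnnc1 and Aldoa. Many of the 77 matched a transcript of Six4, Klhl41 or Vcam1, and whether they are copies of these genes was not tested. None of those matches passed the filter. Of the 123, 9 passed the filter, and 58 of the remaining 114 were listed at 0 in all 6 libraries. Of the 9, 3 fell (Tnnc1, Mylf-ps and AC157554.3), none rose and 6 did not pass, where 1.61% of all tested genes fell and 1.15% rose. As 6 of the 9 are genes chosen with this comparison in view, and AC157554.3 entered the test through its control libraries, nothing is read from that count. Their median log2 fold change was -0.38, the value of Gm13778, against -0.02 for all tested genes. When an overlap had to span at least 100 bases, which leaves out Gm13778 and Gm43109, the median of the remaining 7 was -0.48, and the same 3 passed. Besides Tnnc1 and 6 of the 7 genes described above (Klhl33 is in no list), the 9 hold Rps12-ps4, a ribosomal protein pseudogene over an exon of Nphs1, and Rpl36a-ps2, a ribosomal protein pseudogene matching a Dtnb transcript at 93.8%. Rps12-ps4 was at 48.8 ± 6.56 and 53.0 ± 16.8 FPKM and Rpl36a-ps2 at 41.6 ± 6.43 and 45.1 ± 11.9 FPKM in control and OI (SD, n = 3 each), with log2 fold changes of 0.08 (95% interval from -0.50 to 0.65) and 0.10 (-0.39 to 0.59). Among the 3 that fell, Tnnc1 had the lowest log2 fold change, -2.39 ± 0.11 (SE), followed by AC157554.3 and Mylf-ps.

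Within 50000 bases of the 7 genes 1 other gene of the tables passed the filter. Pnp, an enzyme of purine salvage 33575 bases from Klhl33 on the other strand, was at 17.7, 18.6 and 19.6 FPKM in control and at 18.0, 16.8 and 16.7 FPKM in OI. Its groups overlapped, its log2 fold change was -0.11 (95% interval from -0.29 to 0.07), and it did not pass the threshold.

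The order of the 3 genes that fell was the same under the pseudocounts 0.1 and 1 and on recovered reads, with AC157554.3 lowest, then Mylf-ps, then Klhl33, whereas with a pseudocount of 5 Mylf-ps was lowest at -1.39.

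**Figure D5:**
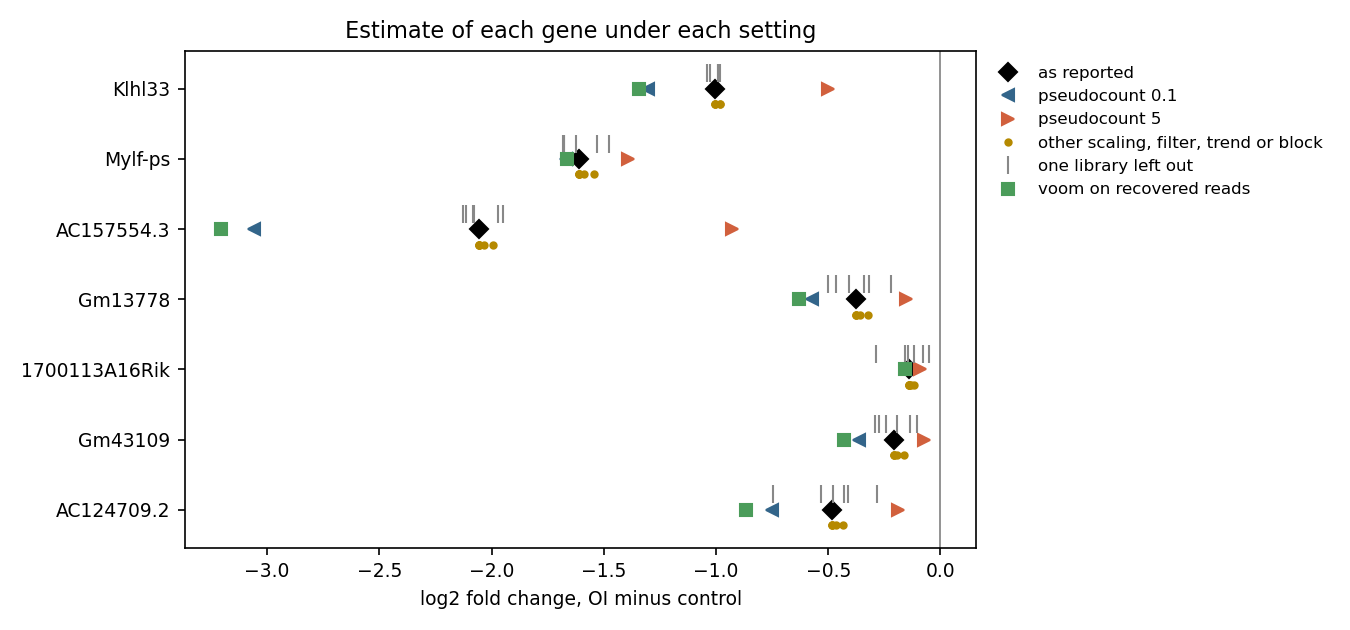
Log2 fold change of OI minus control (x axis) for each of the 7 genes as reported (diamonds), with a pseudocount of 0.1 (left-pointing triangles) or 5 (right-pointing), on recovered reads (squares), under another scaling, filter, trend or block (dots) and without 1 library (grey ticks). All estimates lie below 0, and those of AC157554.3 span the widest range, from -3.21 to -0.93.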

How the data were processed

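The submitters' processing notes name build mm10 and, with no roles, StringTie 1.3.3b, HISAT2 2.1.0 and cutadapt 2.7. Annotation release, read length and strand setting were not found in any source used here. The authors deposited FPKM values, 1 table per sample with gene length and position. Of 27943 genes 1 with a broken annotation was left out.

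Library size was recovered from genes of 1 exon, where FPKM times length falls on whole multiples of 1 step. Genes with FPKM of 1 or more in at least 3 of 6 libraries (1737) were tested two-sided on log2(FPKM + 1) in limma 3.58.1 (R 4.3.3, trend=TRUE), and p-values were adjusted by Benjamini and Hochberg's method over all of them. The fit was checked on simulated data with independent noise. Of 50 genes changed at each size it recovered 4 at a log2 change of 0.25, 19 at 0.5, 36 at 1 and 46 at 2. It called 1 of 1537 unchanged genes. Exonic overlap came from GENCODE M21 (GRCm38), where 27530 genes have the same coordinates, and near-identity from BLAST+ 2.17.0. Promoters are from RefSeq (GRCm38.p6). Other software was Matplotlib 3.10.9, SciPy 1.17.1, pandas 2.3.3 and Python 3.11.15.

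The members, the gene lists and the rules were chosen with earlier results of these data known. Named genes were the 7 members, the 2 tested genes nearest each in profile, the tested muscle-linked genes, tested neighbours within 50000 bases, Tnnc1 and H19. Alternatives were other pseudocounts, filters, scalings, trend=FALSE, a replicate block, limma voom on recovered reads, stricter links and leaving out each library.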

Additional observations from a re-analysis of the deposited data

How the results depend on the processing

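Under the 9 other settings and the 6 fits without 1 library, Mylf-ps and AC157554.3 stayed lower and past the limma threshold, as did Klhl33 in the 14 that kept it (a filter at 5 FPKM removed it). Gm13778, 1700113A16Rik, Gm43109 and AC124709.2 stayed below 0 and passed in none of the fits that held them. The count of genes called over the whole table depended more on the setting. It was 48 as reported, 14 with no filter on low values, 17 with the replicate block, and between 15 and 27 without 1 library. With limma voom on recovered reads, where 3066 genes were tested, it was 62, and under the remaining settings it was between 43 and 49. Leaving out any 1 of the 6 libraries lowered it by more than 1.5 times, to 24, 19 and 27 without control replicates 1, 2 and 3 and to 24, 15 and 16 without OI replicates 1, 2 and 3. The cause was not tested beyond fewer libraries in each such fit. For the 9 muscle-linked genes the median log2 fold change of -0.38 became -0.57 at pseudocount 0.1, -0.15 at pseudocount 5, -0.88 among the 6 that pass a 5 FPKM filter, -0.63 with limma voom on recovered reads, and between -0.48 and -0.22 without 1 library, the latter without OI replicate 1. In each of these fits 3 of the linked genes passed, all lower.

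The values did not settle whether the replicate numbers pair the libraries. Deviations from the group means correlated at 0.05, 0.14 and -0.08 for numbers 1, 2 and 3. The 0.14 of number 2 was the highest between any control and any OI library. Control replicate 1 correlated about as well with OI replicate 3 (0.052) as with OI replicate 1 (0.047). With 3 libraries per group such values cannot show whether same-numbered libraries shared a culture. The replicate block changed no call among the 7 genes, but with it Klhl33 and Mylf-ps lay much closer to the threshold than as reported. AC124709.2 rests on 8 to 29 reads per library, Gm13778 on about 17 to 38 and Gm43109 on 21 to 36.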

Other observations

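Below the filter, 39 further genes shared exonic bases with a muscle gene, and 25 of them had a mean above 0 in both groups. The mean was lower in OI for 19 of the 25 and higher for 6, where 65.0% of the 6145 untested genes above 0 in both groups had a lower mean in OI. All control libraries lay above all OI libraries for 12 of the 25 and the reverse held for none, against 7.63% and 2.78% of those 6145 genes. These counts were made after the values were seen, most of the 25 were under 0.5 FPKM, and none was tested. The genes named next were also picked after their values were seen. Gm48084, which shares 631 exonic bases with the laminin gene Lama2 on the opposite strand, was at 0.585, 0.541 and 0.624 FPKM in control and at 0.205, 0.212 and 0.214 FPKM in OI, and the groups did not overlap. Gm13938, which shares 453 exonic bases with the titin gene Ttn, was at 1.49, 0.465 and 0.338 FPKM in control, where replicate 1 stood apart, and at 0, 0.112 and 0.158 FPKM in OI. Gm28376, which shares 34 exonic bases with the junctophilin gene Jph1, was at 0.697, 0.931 and 0.947 FPKM in control and at 0.884, 1.25 and 1.11 FPKM in OI, and its groups overlapped. Gm15943, opposite the ubiquitin ligase gene Fbxo32, was at 0.621, 0.883 and 0.907 FPKM in control and at 0.953, 0.786 and 0.927 FPKM in OI, and Gm48796, over the adhesion gene Jam3, at 0.428, 0.287 and 0.235 FPKM and at 0.352, 0.234 and 0.264 FPKM, with overlapping groups in both cases.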
